A study of Mus musculus with 6 samples.

Results

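The genes described are 10 members of the BCL2 family of survival and death genes: the prosurvival genes Bcl2, Bcl2l1 and Mcl1, the pore-forming effector genes Bax and Bak1, and the BH3-only genes Bcl2l11, Bid, Bad, Bbc3 and Pmaip1. They were chosen by symbol, and each of the 10 symbols matched 1 of the 23282 gene entries in the deposited count tables. All 10 passed the filter on low counts, which kept 11092 entries in all. Counts came from RAW 264.7, an established mouse macrophage line that forms bone-resorbing, multinucleated osteoclasts when driven to differentiate. The samples were 3 labelled CPN and 3 labelled control, all at day 5 of osteoclast differentiation, and messenger RNA was read from its 3′ end with a QuantSeq kit. The series title speaks of a 60 kDa chaperonin, a class of protein-folding machine; the labels give neither its source nor its dose, nor the agent that drove differentiation in either group. The comparison asks how the 10 genes differed between CPN and control cells on that day. The labels do not say that samples of a group were separate cultures, so p-values speak of variation among these libraries alone and part of it may be technical.

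BCL2 family proteins decide at the outer membrane of the mitochondrion whether a cell enters apoptosis. BAX and BAK form pores through which cytochrome c leaves to activate caspases, BCL2, BCL-XL and MCL1 hold these effectors and their activators in check, and BH3-only proteins report stress by binding the prosurvival proteins or by activating the effectors directly. In the mouse, BIM, MCL1 and BCL-XL are known to set how long mature osteoclasts live. Several members are also controlled by protein stability, cleavage or phosphorylation, which RNA counts do not measure.

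Library totals lay between 8267719 and 8423438 counts in CPN and between 7957228 and 9713938 in control, and the members' counts between 57 (Bcl2 in control 3) and 7078 (Mcl1 in control 1). Libraries differed in sparsity: among 707 genes averaging 6 to 12 counts, CPN 1 had 14.0% zeros and control 3 had 23.8%, against 36.9% to 41.2% in the other 4. Random (Poisson) sampling at these mean counts would give 0.0538% zeros, so every library had far more. Low counts below thus vary by more than count sampling. Summed levels of 7 osteoclast markers were 952 to 1512 CPM (counts relative to library size, scaled by TMM) in CPN and 3267 to 3532 CPM in control; 6 were called lower by edgeR's quasi-likelihood test, while Mmp9 was called higher (257 CPM in CPN and 87.01 CPM in control). The 7 macrophage markers, all detected, summed to 2556 to 2788 CPM in CPN and 1864 to 2459 CPM in control. Of these, Adgre1, Cd14 and Fcgr1 were called higher, and the means of Cd68 and Csf1r, which did not pass, were lower in CPN. Of 4 granulocyte markers 3 were detected, summing to 18.0 to 34.6 CPM in CPN and 0 to 0.117 CPM in control. This sum was almost all S100a8, at 18.7, 34.6 and 17.9 CPM in CPN 1 to 3, while S100a9 and Mpo had at most 6 counts in a library and Elane was at 0 throughout. All 6 stromal markers were detected and summed to 13.4 to 20.4 CPM in CPN and 0 to 6.23 CPM in control, with Dcn, the only one of them tested, called higher, and 4 lymphocyte markers summed to 0 to 0.480 CPM in CPN and 0 to 0.785 CPM in control, with Ms4a1 at 0 throughout. The part of these marker differences in the results below was not tested. Because the samples are bulk RNA, fewer cells of a type and less RNA per cell cannot be told apart.

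The prosurvival genes moved in opposite directions. Mcl1 fell 1.83-fold in CPN cells, while Bcl2 rose 3.07-fold and Bcl2l1 rose 2.04-fold, and among the death genes Bbc3 rose 2.78-fold (n = 3 per group). Bax, Bak1, Bcl2l11, Bid, Bad and Pmaip1 did not pass. These calls come from edgeR's quasi-likelihood test, fitted to all 11092 genes with Benjamini-Hochberg adjustment and a threshold of 0.05. Thus 3 of the 10 members were higher and 1 was lower, where 7.62% of all genes tested were called higher and 6.39% lower, 14% in all. With control 3 and CPN 1, the libraries with fewest zeros, both left out, 0 members were called higher and 1 lower by edgeR, while 3 had an unadjusted p under 0.05 in the higher direction. The median log2 fold change was 0.19 over the 10 members and -0.0079 over all genes tested. The groups were fully apart for 4 of the 10 members, the same 4 that passed, beside 32.6% of all genes tested.

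**Figure D1:**
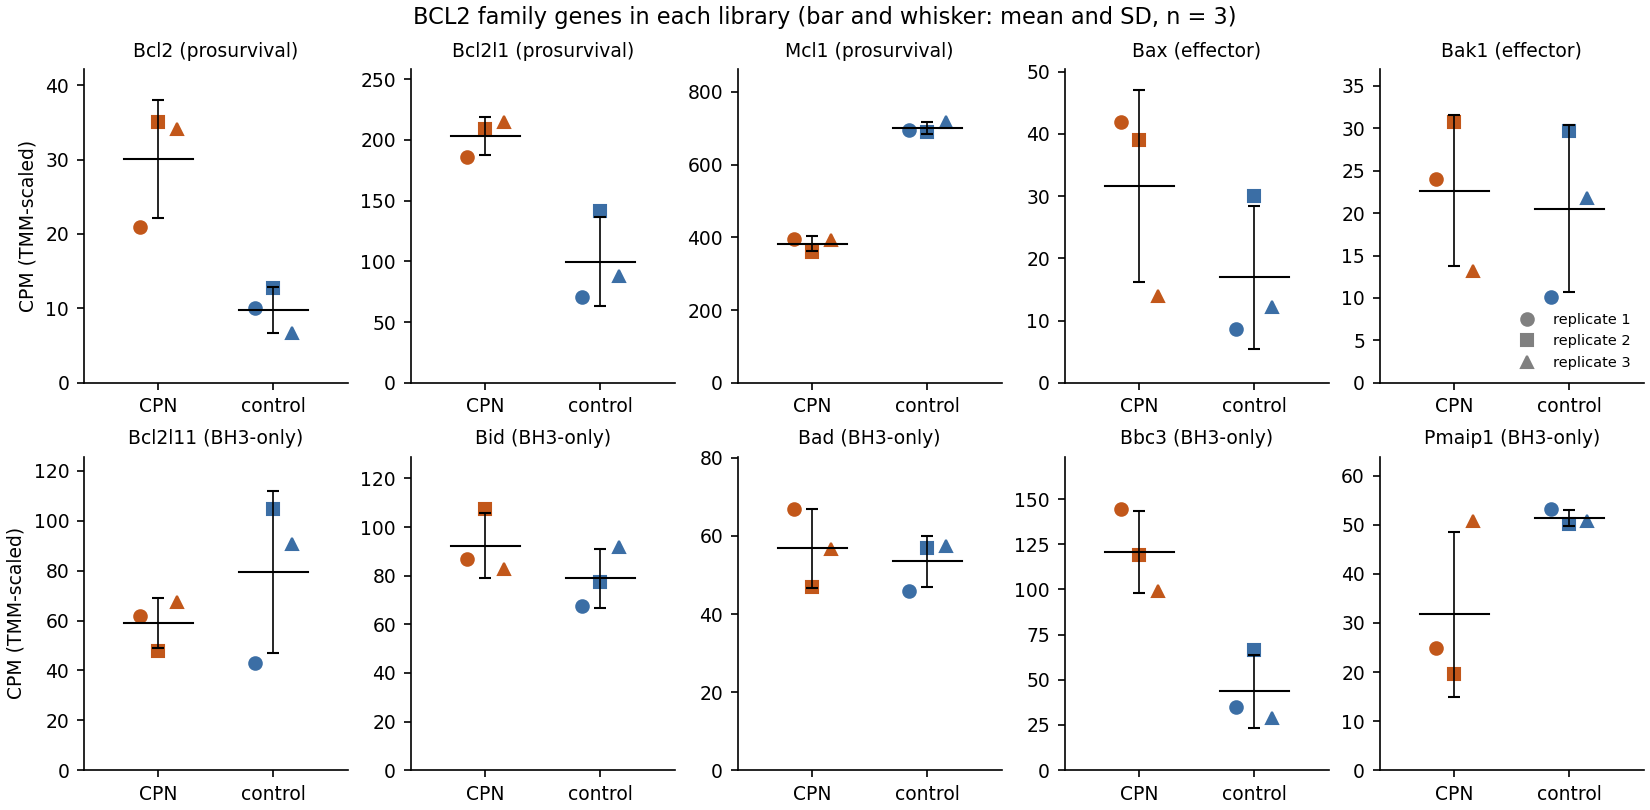
Level of each of the 10 BCL2 family genes (CPM, TMM-scaled, linear axes from 0) in the 3 CPN libraries (orange, left) and the 3 control libraries (blue, right), with the mean as a bar and the SD as whiskers. The 3 CPN values lie below all control values for Mcl1 and above them for Bcl2, Bcl2l1 and Bbc3, and the groups overlap for the other 6 genes.

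Mcl1 encodes a short-lived prosurvival protein that binds BAK and BIM, and lies on chromosome 3 (95658788 to 95663176, GRCm38, the build of mm10). It had 396, 360 and 392 CPM in CPN 1 to 3, against 694, 689 and 718 CPM in control 1 to 3. The libraries of each group lay close together, and every CPN value was below every control value. The group means were 383 ± 19.7 CPM in CPN and 700.4 ± 15.8 CPM in control (SD, n = 3). On the log2 scale the difference was -0.87 ± 0.145 (SE), with an edgeR adjusted p of 0.00143. Mcl1 kept its call under all 14 alternative settings, with adjusted p of 7.47e-08 to 0.0419, and it was the 1 member called with both control 3 and CPN 1 left out.

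Bcl2 (chromosome 1, 106538178 to 106714274), the founding prosurvival gene of the family, had 20.9, 35.1 and 34.1 CPM in CPN 1 to 3, against 10.01, 12.7 and 6.66 CPM in control 1 to 3. It was higher in every CPN library, and CPN 1 was nearest to the controls. On the log2 scale it was higher by 1.62 ± 0.365 (SE; edgeR adjusted p = 0.0101). Bcl2l1 (chromosome 2, 152780668 to 152831728) encodes BCL-XL, which restrains BAX and BAK. It had 186, 209 and 215 CPM in CPN 1 to 3, against 70.5, 141 and 87.8 CPM in control 1 to 3, so that the groups did not overlap and control 2 was the highest control. Its log2 fold change was 1.03 ± 0.238 (SE, edgeR adjusted p = 0.0117). Both calls ended without control 3 (adjusted p = 0.0507 for Bcl2 and 0.066 for Bcl2l1) and without CPN 2 (0.0578 and 0.054), and over all 14 settings adjusted p ran from 0.000694 to 0.075 for Bcl2 and from 8.32e-05 to 0.136 for Bcl2l1. The short and long splice forms of BCL-X share their 3′ end, so 3′ counts do not separate the prosurvival from the death-promoting form.

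Bbc3 encodes PUMA, a BH3-only protein induced by p53 and by endoplasmic reticulum stress that binds all of the prosurvival proteins, and lies on chromosome 7 (16308393 to 16318205). It had 145, 119 and 99.4 CPM in CPN 1 to 3, against 35.02, 66.7 and 29.1 CPM in control 1 to 3. Every CPN library was above every control, with control 2 again the highest control. The log2 fold change was 1.47 ± 0.294 (SE, edgeR adjusted p = 0.00484). The call held without any single library, at log2 fold changes of 1.25 to 1.93, the largest of them without control 2. Without both control 3 and CPN 1 it was 1.10, with adjusted p = 0.126 in a range of 8.78e-07 to 0.126 over 14 settings.

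Sequences before RefSeq starts of these 4 genes are shown because their RNA passed the test. Each line is the 250 bases upstream of the most upstream RefSeq start (GRCm38.p6, 5′ to 3′ on the gene's strand), at chr1:106714291-106714540 for Bcl2, chr2:152831729-152831978 for Bcl2l1 and chr3:95658471-95658720 for Mcl1, and chr7:16309333-16309582 for Bbc3, with Bcl2 and Bcl2l1 on the minus strand. For Bbc3 the annotations differ: the GENCODE gene given above begins upstream of every base of this window, so the window lies inside that gene and precedes only the RefSeq start. Bcl2l1 and Bbc3 have 3 RefSeq windows each, and 3′ counts do not tell which start was used. Capitals mark letters matching any of 7 searched motifs.
Bcl2: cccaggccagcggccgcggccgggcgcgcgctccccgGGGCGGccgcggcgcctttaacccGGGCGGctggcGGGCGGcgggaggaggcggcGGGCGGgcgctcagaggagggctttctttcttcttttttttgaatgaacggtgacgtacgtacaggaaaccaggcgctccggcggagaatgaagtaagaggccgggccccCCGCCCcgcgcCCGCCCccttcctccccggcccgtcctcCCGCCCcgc
Bcl2l1: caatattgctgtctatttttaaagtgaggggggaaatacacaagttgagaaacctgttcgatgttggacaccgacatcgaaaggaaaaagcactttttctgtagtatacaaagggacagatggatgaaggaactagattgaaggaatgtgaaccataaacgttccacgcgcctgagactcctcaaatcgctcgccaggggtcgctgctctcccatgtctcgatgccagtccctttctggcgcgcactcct
Mcl1: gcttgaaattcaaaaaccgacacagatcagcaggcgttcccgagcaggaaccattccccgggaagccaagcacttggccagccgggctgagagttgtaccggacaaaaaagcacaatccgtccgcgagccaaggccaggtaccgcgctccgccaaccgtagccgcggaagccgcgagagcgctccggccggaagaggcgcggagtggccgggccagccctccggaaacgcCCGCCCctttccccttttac
Bbc3: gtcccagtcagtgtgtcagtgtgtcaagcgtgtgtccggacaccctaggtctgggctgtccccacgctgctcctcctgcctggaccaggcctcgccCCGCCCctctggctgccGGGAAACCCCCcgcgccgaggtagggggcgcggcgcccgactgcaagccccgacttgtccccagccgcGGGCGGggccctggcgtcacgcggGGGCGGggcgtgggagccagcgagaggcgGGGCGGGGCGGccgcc
On both strands, the GC box GGGCGG matched 7 times in the Bcl2 window, 5 times in that of Bbc3, 1 time in that of Mcl1 and 0 times in that of Bcl2l1, where 33% of 27025 gene windows of this length hold it. The NF-kB consensus had 2 overlapping matches in the Bbc3 window and 0 in the other 3, against 4.81% of windows. TGANTCA (AP-1), TGACGTCA (cyclic AMP response element), TGATGNAA (C/EBP-ATF composite), GTAAACA (FOXO) and the p53 half-site consensus had 0 matches in the 4 windows, where 6.85%, 1.6%, 3.53%, 3.06% and 7.16% of windows hold them. Neighbouring GC boxes share letters in places. The windows were GC-rich for Bbc3 (76.4%), Bcl2 (74.8%) and Mcl1 (64.4%), while Bcl2l1 had 47.6%, beside a median of 52% over all genes. These features were not particular to called members. Uncalled members had 72% (Bcl2l11), 63.6% (Bid), 62.8% (Bad), 58.4% (Bak1) and 54% (Bax). The GC box matched 3 times each for Bcl2l11, Bid and Bad, 2 times for Bax and 0 times for Bak1. The FOXO motif matched 1 time for Bcl2l11 and the p53 half-site 1 time for Bax.

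The effector genes were low and variable. Bax (chromosome 7, 45461697 to 45466898) had 42.0, 39.0 and 13.9 CPM in CPN 1 to 3, against 8.63, 30.1 and 12.3 CPM in control 1 to 3. CPN 3 lay among the controls and control 2 was the highest of them, so the groups overlapped. Its log2 fold change was 0.90 with a 95% interval of -0.16 to 1.96 (edgeR adjusted p = 0.276). Without control 2 Bax was called higher, at 1.62 and adjusted p = 0.0192, in a range of 0.0192 to 0.813 over the 14 settings. Bak1 (chromosome 17, 27019810 to 27029009) had 24.0, 30.8 and 13.2 CPM in CPN 1 to 3 and 10.1, 29.7 and 21.7 CPM in control 1 to 3. These values were interleaved, and the log2 fold change of 0.14 had an interval of -0.77 to 1.06 (edgeR adjusted p = 0.88). Bak1 lies within Ggnbp1 on the opposite strand, which had 221 counts in all against 1078 for Bak1.

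Among the other BH3-only genes, Pmaip1 came nearest to the threshold. It encodes NOXA, which binds MCL1 and promotes its breakdown, and lies on chromosome 18 (66458533 to 66465565). It had 24.8, 19.5 and 50.9 CPM in CPN 1 to 3, against 53.3, 50.1 and 50.7 CPM in control 1 to 3. The controls were nearly equal, CPN 1 and CPN 2 lay far below them, and CPN 3 lay among them. Its log2 fold change was -0.69 with a 95% interval of -1.39 to 0.0013 (edgeR adjusted p = 0.191). Without CPN 3 it was called lower, at -1.21 and adjusted p = 0.0168, in a range of 0.0168 to 0.598 over the 14 settings.

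Bcl2l11 encodes BIM, an activator of BAX and BAK (chromosome 2, 128126038 to 128162547), and had 61.8, 47.9 and 67.4 CPM in CPN 1 to 3, against 43.0, 104.8 and 90.8 CPM in control 1 to 3. Control 1 was the lowest of the 6 libraries and the other controls were the highest, so controls lay on both sides of CPN (log2 fold change -0.43, 95% interval -1.07 to 0.21, edgeR adjusted p = 0.406). The log2 fold change of Bcl2l11 was negative under all 14 settings, from -0.73 to -0.16. Without control 1 it was -0.73, still not called (edgeR adjusted p = 0.0848). Bid (chromosome 6, 120891930 to 120916853), whose product caspase-8 cleaves to link death receptors to mitochondria, had 87.0, 107.5 and 82.6 CPM in CPN 1 to 3 and 67.5, 77.4 and 91.7 CPM in control 1 to 3. Bad (chromosome 19, 6941861 to 6951899), whose product is held inactive by survival-factor kinases, had 67.0, 46.9 and 56.6 CPM in CPN 1 to 3 and 46.01, 57.0 and 57.4 CPM in control 1 to 3. Both genes overlapped between groups. The log2 fold change of Bid was 0.23 (95% interval -0.22 to 0.67, edgeR adjusted p = 0.545) and that of Bad was 0.088 (-0.39 to 0.57, edgeR adjusted p = 0.858). For Bad the value was -0.025 when libraries were scaled by their totals alone. Bid overlaps 913 bases of Bcl2l13 and Bad overlaps 620 bases of Gpr137, each on the opposite strand, and strand use in counting is not given, so reads there could belong to either gene.

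**Figure D2:**
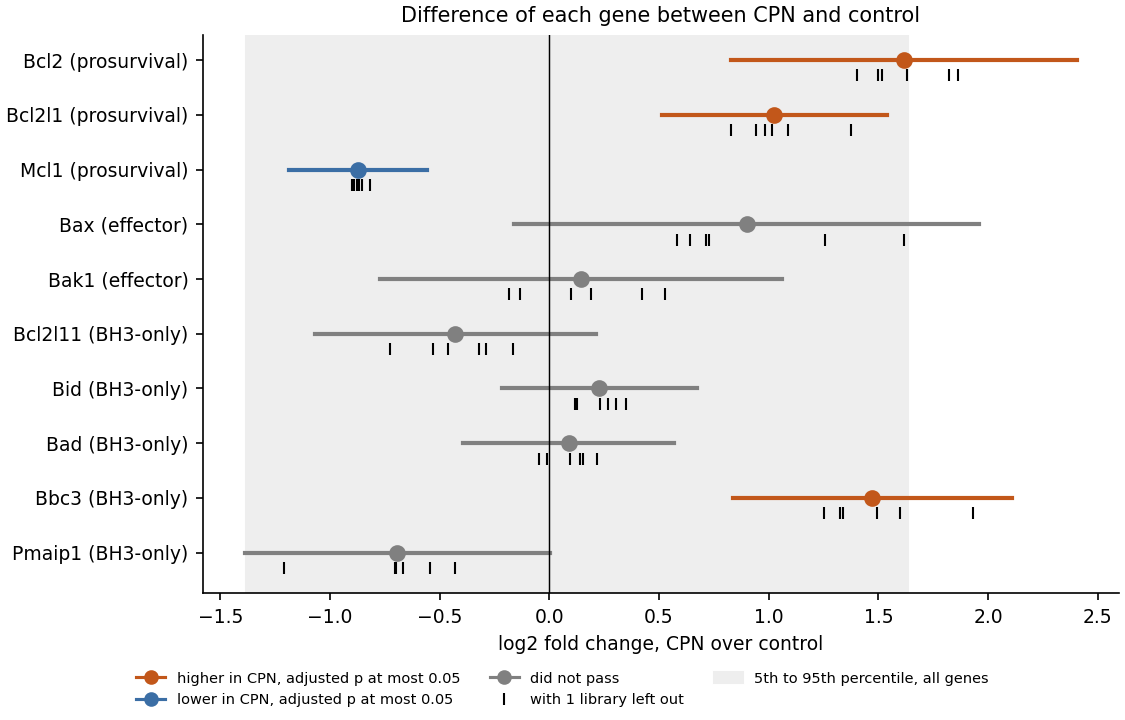
Log2 fold change of CPN over control for each gene (points) with its 95% interval (lines), the values with each library left out in turn (ticks) and the 5th to 95th percentile over all genes tested (grey band, -1.38 to 1.64). The intervals of Bcl2, Bcl2l1 and Bbc3 lie above 0 and that of Mcl1 below it, and the ticks of Mcl1 span -0.90 to -0.82 while those of Bax span 0.58 to 1.62.

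The order of levels within each group shows how the members sat against each other. QuantSeq reads the 3′ end of each transcript, so these CPM values were not divided by length. Mcl1 was the highest member in both groups, followed by Bcl2l1. In CPN cells the CPM ranges of Mcl1, Bcl2l1 and Bbc3 did not overlap, Bbc3 overlapped Bid, and Bid (82.6 to 107.5 CPM) lay above Bcl2l11 and Bad. In control cells Mcl1 stood apart at 689 to 718 CPM, Bcl2l1, Bcl2l11 and Bid overlapped in CPM, and Bid lay above Bad. Bbc3 ranked 3 of 10 by mean CPM in CPN and 7 of 10 in control. At the low end Pmaip1, Bax, Bcl2 and Bak1 followed each other in CPN with overlapping CPM, while in control Bcl2 came last at 9.79 CPM.

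As a share of the counts of the 10 genes, Mcl1 took 37.6%, 35.5% and 38.3% in CPN 1 to 3, against 66.9%, 54.7% and 61.6% in control 1 to 3. Bcl2l1 took 17.6% to 21% in CPN and 6.79% to 11.2% in control, and Bbc3 took 9.69% to 13.7% in CPN and 2.49% to 5.30% in control. By role, the 3 prosurvival genes together made up 57.2%, 59.5% and 62.6% in CPN 1 to 3 and 74.6%, 67% and 69.7% in control 1 to 3. The 5 BH3-only genes made up 33.6% to 36.6% in CPN and 23.6% to 28.3% in control, and the effectors 2.64% to 6.88% in CPN and 1.80% to 4.75% in control. The prosurvival and BH3-only shares did not overlap between groups and the effector share did. Shares divide a fixed total, so a lower Mcl1 raises the shares of the other genes. Bid, whose CPM overlapped, took 8.06% to 10.6% in CPN and 6.15% to 7.86% in control. The shares restate the levels given above and are not separate support. Among the prosurvival genes only Mcl1 was lower, while Bcl2 and Bcl2l1 were higher. In CPM rather than share, the BH3-only sum overlapped, at 385, 341 and 357 CPM in CPN 1 to 3 against 245, 356 and 320 CPM in control 1 to 3, while the prosurvival sum was lower in every CPN library (602 to 642 CPM in CPN and 775 to 843 CPM in control). Summed over the 10 genes, the level was 1031 ± 20.2 CPM in CPN and 1154 ± 110.4 CPM in control (SD, n = 3), with overlapping libraries.

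**Figure D3:**
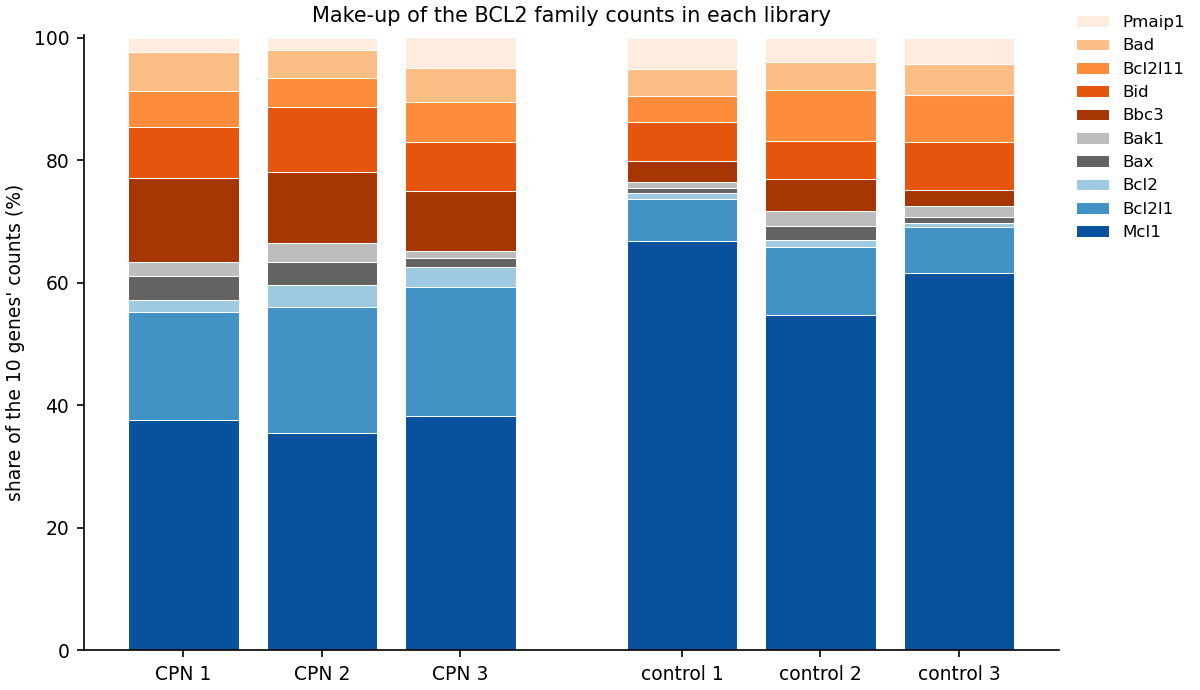
Share of each gene in the summed counts of the 10 BCL2 family genes (%), per library, with CPN libraries on the left, prosurvival genes in blue, effectors in grey and BH3-only genes in orange. The Mcl1 segment spans 35.5% to 38.3% in CPN and 54.7% to 66.9% in control, and the Bcl2l1 and Bbc3 segments are wider in every CPN library.

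Ratios of counts within a library do not depend on how libraries are scaled. They are given as values, since an exact two-sided permutation test of 3 against 3 cannot go below p = 0.1. The log2 ratio of Bbc3 to Mcl1 was -1.45, -1.598 and -1.98 in CPN 1 to 3, against -4.31, -3.37 and -4.63 in control 1 to 3. All CPN libraries were above all controls, by 2.42 between the means on the log2 scale. Bcl2l1 to Mcl1 gave log2 ratios of -1.09, -0.79 and -0.87 in CPN 1 to 3, against -3.30, -2.29 and -3.03 in control 1 to 3. These groups were also apart, with a difference between means of 1.96, and control 2 was the nearest control to CPN in both ratios. Both separations follow from the levels given above, where Bbc3 and Bcl2l1 were higher and Mcl1 lower in every CPN library. They are therefore not separate support for those differences. Bax to Bcl2 ranged from -1.30 to 1.01 in CPN and from -0.21 to 1.24 in control on the log2 scale, and Bcl2l11 to Mcl1 from -2.91 to -2.54 in CPN and from -4.01 to -2.72 in control. These last 2 ratios overlapped between groups.

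**Figure D4:**
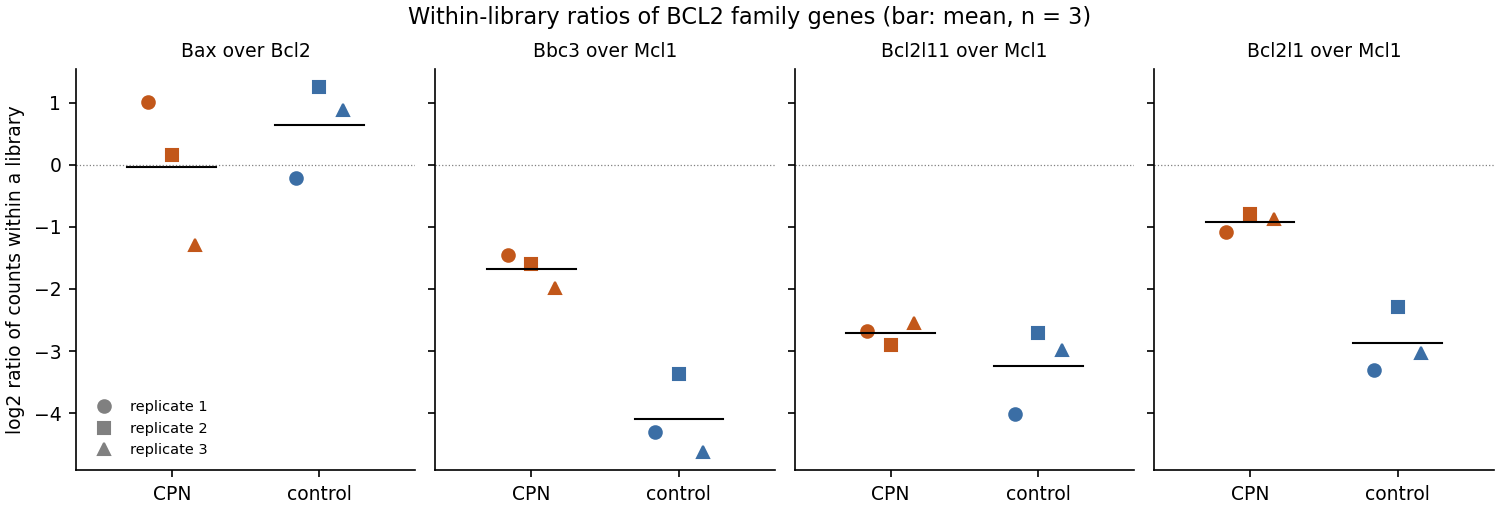
Log2 ratio of counts within each library for 4 pairs of BCL2 family genes, with CPN on the left, control on the right and the mean of 3 libraries as a bar. The CPN points lie above all control points for Bbc3 over Mcl1 and Bcl2l1 over Mcl1, with means of -1.68 in CPN and -4.10 in control for Bbc3 over Mcl1, and the groups overlap for the other pairs.

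The wider family held 16 further genes, of which 10 could be tested: 2 were called higher, 1 was called lower and 7 were not called, beside 7.62% higher and 6.39% lower over all genes tested. DESeq2 and limma-voom each called 3 higher, and with control 3 and CPN 1 left out 0 were called by edgeR in either direction, with an unadjusted p under 0.05 for 2 higher and 1 lower. Bcl2a1b, a prosurvival gene of the A1 group that NF-kB induces, had 243, 192 and 215 CPM in CPN 1 to 3, against 76.9, 121.5 and 72.7 CPM in control 1 to 3 (log2 fold change 1.26 ± 0.220, SE, edgeR adjusted p = 0.00196). Its copy Bcl2a1d rose by 1.07 ± 0.272 on the log2 scale (SE; edgeR adjusted p = 0.0192), a call that ended without control 1, control 3, CPN 1 or CPN 2 (adjusted p over 14 settings 0.000239 to 0.27). The A1 copies are nearly identical in sequence, so their counts may be split or shared and are uncertain as separate genes. Bnip3, a hypoxia-induced receptor for removal of mitochondria, fell to 74.6, 60.2 and 65.6 CPM in CPN 1 to 3, against 137, 108 and 233 CPM in control 1 to 3 (edgeR adjusted p = 0.00648). The untested members, among them Bik, Hrk, Bok and Bcl2l10, had at most 3 counts in all.

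Downstream of the mitochondrion, 2 of 16 genes of the apoptosome, caspases and their inhibitors fell and 14 did not pass, beside 6.39% of all genes tested called lower and 14% in either direction. With control 3 and CPN 1 left out, edgeR called 0 of them, with 3 lower at an unadjusted p under 0.05. By edgeR, DESeq2 and limma-voom 0 were called higher, and 2 of the higher ones had an unadjusted edgeR p under 0.05; the list's median log2 fold change was -0.065. Birc5, which encodes survivin and is expressed in dividing cells, had 17.5, 24.8 and 25.9 CPM in CPN 1 to 3, against 97.4, 47.1 and 110.3 CPM in control 1 to 3 (log2 fold change -1.90 ± 0.313 SE, edgeR adjusted p = 0.00134). Htra2, a mitochondrial protease that counters caspase inhibitors when released, fell by 0.64 on the log2 scale with an edgeR adjusted p of 0.0494 and lost its call under 8 of 14 settings, with adjusted p up to 0.243. In the death receptor pathway that leads to BID, 1 of 8 genes rose and 7 did not pass by edgeR, beside 7.62% of all genes tested called higher, while DESeq2 and limma-voom each called 2 higher. That gene was Cflar, whose product blocks caspase-8, at 181, 114 and 116 CPM in CPN 1 to 3, against 60.2, 100.9 and 65.9 CPM in control 1 to 3. The groups did not overlap (log2 fold change 0.86 ± 0.251 SE, edgeR adjusted p = 0.0379), but the call ended under 8 of 14 settings, 5 of them with a single library left out, with adjusted p up to 0.432.

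Among p53 and its targets, a class to which Bbc3 itself belongs, 3 of 14 tested genes were called higher, 1 was called lower and 10 were not called, with a median log2 fold change of 0.49; over all genes tested 7.62% were higher and 6.39% lower. DESeq2 called 5 of the 14 higher, and edgeR with control 3 and CPN 1 left out called 1 higher and 1 lower. Gadd45a, a growth-arrest gene also induced by other stresses, had 244, 239 and 352 counts in CPN 1 to 3, against 0, 1 and 7 counts in control 1 to 3 (edgeR adjusted p = 4.82e-05). Eda2r, a receptor of the tumour necrosis factor family, had 98, 128 and 29 counts in CPN 1 to 3, against 3, 8 and 1 counts in control 1 to 3 (edgeR adjusted p = 0.0059), and its call ended without CPN 2 (adjusted p = 0.0654), by limma-voom (0.103) and with control 3 and CPN 1 left out (0.125), the highest of 13 settings. Mdm2, the ubiquitin ligase that limits p53, rose 1.86-fold (edgeR adjusted p = 0.00669), a call that ended without control 3 (adjusted p = 0.0523) and without both control 3 and CPN 1 (0.0609). Sesn1, which encodes a sestrin and is a target of both p53 and FOXO, fell to 19.4, 19.5 and 11.5 CPM in CPN 1 to 3, against 69.8, 74.99 and 67.3 CPM in control 1 to 3 (edgeR adjusted p = 0.000211). Target genes of p53 thus moved in both directions, with Sesn1 the 1 called lower. Of the 14 tested genes 10 had a positive and 4 a negative log2 fold change. At an unadjusted edgeR p under 0.05, 7 were higher and 2 lower. Trp53 itself averaged 94.02 ± 41.6 CPM in CPN libraries and 98.4 ± 28.5 CPM in control libraries (SD, n = 3), and RNA counts do not measure the activity of its protein. The part of p53 in these differences was not tested.

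Of 9 tested stress and FOXO regulators of BH3-only genes, 3 rose and 6 did not pass, beside 7.62% of all genes tested called higher, with a median log2 fold change of 1.23. By limma-voom 5 of the 9 were called higher, by DESeq2 3, and by edgeR with control 3 and CPN 1 left out 1. Atf3, a stress-induced transcription factor gene, had 173, 169.5 and 161 CPM in CPN 1 to 3, against 7.55, 19.8 and 11.2 CPM in control 1 to 3 (edgeR adjusted p = 1.15e-05). Ddit3 encodes CHOP, a transcription factor of the unfolded protein response that acts on BH3-only genes, and had 767, 808 and 634 CPM in CPN 1 to 3, against 43.3, 299.7 and 59.5 CPM in control 1 to 3 (edgeR adjusted p = 0.00906). Atf4, which encodes the regulator above CHOP, had 1114, 1007 and 725 CPM in CPN 1 to 3, against 202, 695 and 176.5 CPM in control 1 to 3 (edgeR adjusted p = 0.0372). Control 2 was thus the highest control for Ddit3 and Atf4, as it was for 6 of the 10 members: Bbc3, Bcl2l1, Bax, Bcl2, Bak1 and Bcl2l11, the last with a lower mean in CPN. The part of this library's stress gene levels in those results was not tested. Without control 2 the log2 fold changes were 1.93 for Bbc3, 1.38 for Bcl2l1 and 1.62 for Bax, beside 1.47, 1.03 and 0.90 with all 6 libraries. As control 2 was the highest control for each of these genes, leaving it out raised the values in any case. The rise therefore does not speak to that library's stress gene levels. Bbc3 and Bcl2l1 were called in both fits, and Bax was called without control 2 but not in the full fit. The call of Atf4 ended under 7 of 14 settings, all but 2 of them with a single library left out, with adjusted p up to 0.333. Among 4 tested ubiquitin ligases and deubiquitinases of the MCL1 protein, 0 passed by edgeR, DESeq2 or limma-voom, and 1 had an unadjusted edgeR p under 0.05. This was Usp9x (unadjusted p = 0.0379), whose product stabilises MCL1, at 84.2 ± 20.2 CPM in CPN and 57.7 ± 9.55 CPM in control (SD, n = 3, edgeR adjusted p = 0.157).

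**Figure D5:**
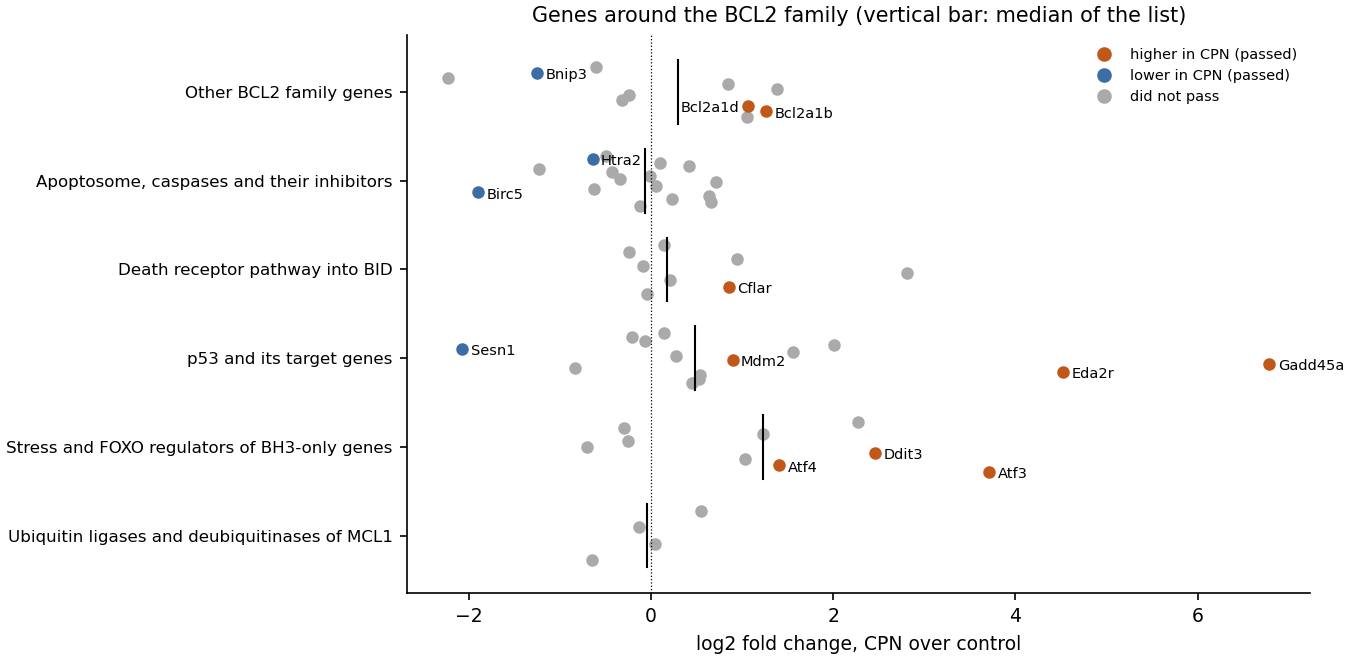
Log2 fold change of CPN over control for each tested gene of 6 lists around the BCL2 family, coloured where it passed an adjusted p of 0.05, with the median of each list as a vertical bar. Named genes are those that passed; medians run from -0.065 for apoptosome and caspase genes to 1.23 for stress and FOXO regulators.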

How the data were processed

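Each of the 6 deposited tables gives whole-number counts per gene entry, not normalized by the authors. Per the submitters' processing notes, Bowtie2, bedtools and the mm10 build were used, with no versions given; for the annotation, strand use and multiple alignments the sources used here give nothing. Of the counts, 9.04% to 16.5% belonged to the ribosomal RNA gene Rn45s and stayed in the totals.

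The test was run in edgeR 4.0.16 under R 4.3.3: TMM scaling, filterByExpr (minimum count 10, minimum total 15), the quasi-likelihood test without covariates on all 6 samples, and Benjamini-Hochberg adjustment over 11092 genes at 0.05. The common biological coefficient of variation was 0.355. SE is the log2 fold change divided by the square root of F, and 95% intervals use the test's degrees of freedom. The code was checked on simulated counts. Of genes simulated with a 2-fold change 26 of 98 were called, with a 4-fold change 74 of 92, and with no change 10 of 10633. A gene that did not pass may therefore still differ between the groups. Far fewer genes were changed in the simulation than the 1554 called in the data, so the adjustment was stricter there. The simulated rates are thus not the rates of the test in these data. At these depths 3 counts are 0.294 to 0.393 CPM.

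The members and lists were chosen with earlier results of these data known. The naming rule took all 10 members and, in each of 6 further lists, up to 4 called genes with the smallest p, or the gene with the smallest p where none was called. Marker genes, Trp53, overlapping genes and untested genes were named besides. Ly6g was not analysed here, and 1 further marker is not reported here. Alternatives were RLE size factors, library totals alone, no filter, a minimum count of 30, DESeq2 1.42.0, limma-voom (limma 3.58.1), the replicate number as a block, each library left out, and control 3 and CPN 1 left out together, the libraries with fewest zeros. Gene positions are from GENCODE M21 (GRCm38). Promoters, found for 9 members, are from RefSeq (GRCm38.p6).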

Additional observations from a re-analysis of the deposited data

How the results depend on the processing

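Of the 4 called members, Mcl1 kept direction and call under all 14 settings, and Bcl2, Bcl2l1 and Bbc3 kept theirs under RLE, library totals alone, both other filters, DESeq2 and limma-voom. With each library left out in turn, 1 to 4 members were higher and 1 to 2 lower, while the genes passing overall ran from 884 to 1954 and those of the related lists that were higher from 5 to 15, beside 9 in the full fit. The log2 fold change then ran from 1.40 to 1.86 for Bcl2, 0.83 to 1.38 for Bcl2l1, 0.58 to 1.62 for Bax, -0.18 to 0.53 for Bak1, -0.048 to 0.22 for Bad and -1.21 to -0.43 for Pmaip1. With both control 3 and CPN 1 left out, 446 genes passed, 0 members were higher, 2 and 1 genes of the related lists were higher and lower, and Bcl2, Bcl2l1 and Bbc3 no longer passed at log2 fold changes of 1.61, 1.002 and 1.10, with 2 samples per group; their 3 unadjusted p were under 0.05. Of all genes tested there, 1994 had an unadjusted p under 0.05. Without a filter, 14630 genes were tested and 14 related genes were higher. The log2 fold change of Bbc3 was 1.47 with and without the filter. Its unadjusted edgeR p was 2.27e-08 without the filter and 0.000249 with it, while that of Bid was 0.318 and 0.286. This fit also gave the lowest adjusted p of Bbc3 over the settings, 8.78e-07. Library totals alone moved the median of all genes to -0.13 and gave 690 higher and 914 lower genes (43% of calls higher, against 54.4% with TMM, 845 and 709); Bad turned to -0.025 there. The replicate number as a block gave 1326 genes and the same 4 members. Same-numbered samples showed no joint deviation from their group means (correlations of -0.074, 0.014 and 0.039). With 3 samples per group these correlations cannot decide whether the numbers pair samples, and the labels do not say. Adding 0.5 to counts moved no ratio by more than its SD.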
